A study of Rattus norvegicus with 6 samples.

Results

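The genes described are those of the rat heat shock protein and J-protein families: all genes whose symbol begins with Hspa, Hspb, Hspd, Hspe, Hsph, Hsp90, Hsf or Dnaj, apart from the chaperones of the endoplasmic reticulum (ER) lumen Hspa5, Hspa13, Hsp90b1, Dnajc3, Dnajb9 and Dnajb11. A probe for 61 of them was found among the 13888 genes with a matched mRNA probe, and 55 of the 61 entered the test, because the scanner software marked their probe as well above background on 3 or more arrays, out of 11189 tested genes. Total RNA came from pancreatic islets, isolated by collagenase digestion from male Wistar rats that carried no stated allele or treatment, with 3 arrays from rats of 3 months and 3 arrays from rats of 12 months, and the comparison asks which of these genes differ between the islets of young and ageing rats. Every value is a quantile-normalized log2 array signal of 1 probe per gene. Levels are therefore compared between ages, not between genes. A difference is always 12-month minus 3-month, and 1 log2 unit is a 2-fold change.

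Heat shock proteins are chaperones that bind unfolded protein. HSP70 proteins clamp onto short exposed stretches of a client in a cycle driven by ATP, J-proteins (the Dnaj families) deliver the client and trigger ATP hydrolysis, HSP110 proteins release the nucleotide, and clients such as kinases and steroid receptors are then passed to HSP90. Small heat shock proteins (Hspb) hold unfolding proteins without ATP, the Hspd1 and Hspe1 proteins form the folding chamber of mitochondria, and heat shock factors (Hsf) switch the inducible genes on by binding repeats of the letters GAA and TTC in their promoters. Beta cells make large amounts of insulin, and a membrane-bound J-protein, the cysteine string protein Dnajc5, serves the release of their granules. The members were not all cytosolic. By textbook location, fixed lists held 10 tested genes for mitochondrial proteins and 5 for J-proteins of the ER, and other members may sit there too. Hspbp1, Hspbap1 and Hsf2bp share the prefix without being chaperones of these families.

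All 7 islet hormone and granule markers on the array, Ins1 and Gcg among them, were well above background on all 6 arrays, and so were all 7 acinar markers. The summed level of the stellate and mesenchymal markers lay between 13.25 and 14.05 log2 units on the 3-month arrays and between 14.63 and 15.99 on the 12-month arrays, and that of the nerve and Schwann markers between 13.21 and 13.73 and between 12.36 and 12.88. The islet sum was also apart, at 20.66 to 20.81 and then 20.99 to 21.04, and so, narrowly, was the endothelial sum, at 15.85 to 16.23 and then 15.06 to 15.82. Acinar, duct, immune and red blood cell sums overlapped between the ages. Of the 7 tested muscle markers, 3 were lower at an adjusted p under 0.05, while the summed level of that list overlapped between the ages (13.92 to 15.43 and 14.36 to 15.18). In bulk islets, fewer cells of a type and less RNA per cell cannot be told apart. Probes marked well above background made up 73.1 to 77.5% of the 3-month and 59.5 to 64.2% of the 12-month arrays, and the negative control spots read a median signal of 29.5 to 31 and of 89.5 to 91. Each age was scanned on its own, so that age and scan cannot be told apart.

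Few of the heat shock proteins and J-proteins passed a threshold, and those that did lay on both sides of 0. With an adjusted p below 0.05 as the limit (limma with Benjamini-Hochberg adjustment over all tested probes), 1 of 55 members was higher in 12-month islets, Dnajb4, against 4.88% of all tested genes, and 2 were lower, Dnajb12 and Hspb7, against 2.98%. In either direction these are 3 of 55, beside 7.86% of all genes. Under the looser threshold that the study used, more than 2-fold and an unadjusted p below 0.05, Dnajb5 joined Dnajb4 among the higher genes (2 of 55, against 9.80% of all genes), and Dnajb2, Dnajc16 and Hspb9 joined the lower ones (5 of 55, against 9.64%), which makes 7 of 55 beside 19.4% in either direction. An unadjusted p under 0.05 was reached by 13 of 55 members and by 30.6% of all genes. The arrays of both ages did not overlap for 6 higher and 12 lower members, that is 18 of 55, against 17.0%, 22.1% and 39.1% of all genes. The median difference of the members was 0.07 log2 units, beside -0.13 for all tested genes, and 30 of the 55 were above 0. When the arrays were aligned at their 75th percentile instead, the median over all genes moved to -0.34 and that of the members to -0.29, with 21 members above 0.

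**Figure D1:**
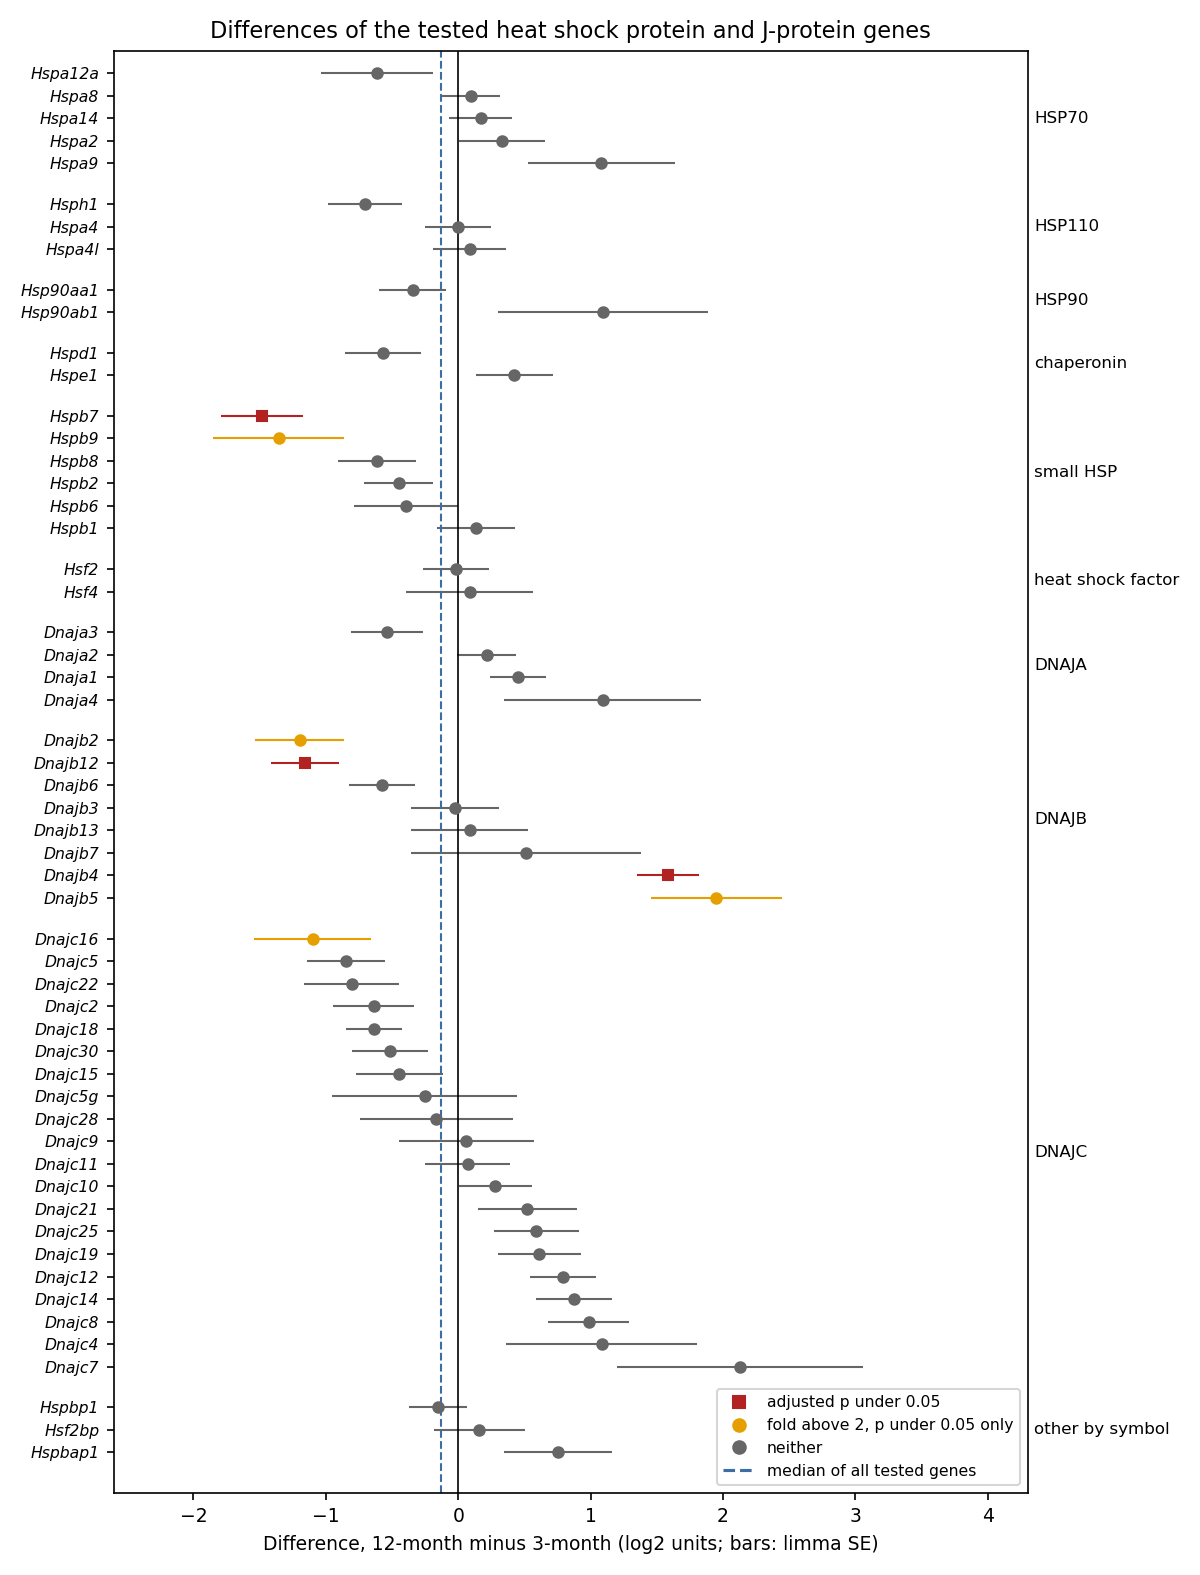
The difference of each of the 55 tested genes (12-month minus 3-month, log2 units, horizontal axis) is drawn by family, with bars for the limma SE; squares passed an adjusted p of 0.05, orange points only the threshold of the study (over 2-fold, unadjusted p below 0.05), and the dashed line is the median of all tested genes. The DNAJB family holds points far to both sides, from -1.20 to 1.95, and 5 of the 6 small heat shock proteins lie below 0.

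None of the 5 tested HSP70 genes passed either threshold (7.86% of all genes at the adjusted one, 19.4% at that of the study). Their median difference was 0.17. Hspa8, the constitutive cytosolic HSP70, read 17.10, 16.85 and 17.11 on the 3-month arrays and 16.99, 17.26 and 17.10 on the 12-month arrays. Its groups overlapped, and the difference was 0.09 ± 0.22 log2 units (SE, n = 3 and 3; limma adjusted p = 0.788). For Hspa9, the HSP70 of mitochondria, the 3-month arrays gave 7.23, 7.43 and 7.04 and the 12-month arrays 8.14, 7.27 and 9.53. Replicates 1 and 3 of the older arrays were above all young ones and replicate 2 lay among them, and the difference of 1.08 ± 0.55 did not pass (adjusted p = 0.217). Hspa2, known from male germ cells, differed by 0.33 ± 0.33 with overlapping groups. Probes for the stress-induced Hspa1a and Hspa1b and for Hspa1l were not matched, and these genes were not analysed here.

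The HSP110 proteins Hspa4 and Hspa4l, which exchange the nucleotide of HSP70, differed by 0.00 ± 0.25 and 0.09 ± 0.27. The third, the heat-inducible Hsph1, gave 13.97, 13.64 and 13.13 at 3 months and 12.87, 12.96 and 12.80 at 12 months. All older arrays were below all young arrays, at a difference of -0.70 ± 0.28 that had an unadjusted p of 0.042 and did not pass after adjustment (limma adjusted p = 0.141).

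The inducible HSP90, Hsp90aa1, had 15.99, 15.55 and 15.85 on the young and 15.42, 15.71 and 15.24 on the older arrays, which overlapped (-0.34 ± 0.25, limma adjusted p = 0.366). Hsp90ab1, the constitutive HSP90, read 11.69, 10.97 and 11.48 at 3 months and 13.01, 10.58 and 13.84 at 12 months. Replicate 2 of the 12-month islets was the lowest of the 6 arrays and the other older arrays the highest, so that a mean difference of 1.09 came with an SE of 0.79 (adjusted p = 0.364). Without that array, singled out because it was lowest, the difference was 2.04 with a limma adjusted p of 0.0307. With each of the 6 arrays left out in turn the difference ran from 0.41 to 2.04, and only the fit without 12-month replicate 2 passed. A second Hsp90ab1 probe gave 1.12 ± 0.78. The reference names 33 pseudogenes of Hspa8, 23 of Hsp90ab1, 20 of Hspd1 and 16 of Hsp90aa1, so whether these probes read only the parent gene is uncertain.

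The chaperonin subunits of mitochondria lay on opposite sides of 0. Hspd1, the large subunit (HSP60), read 14.95, 14.58 and 15.45 on the 3-month and 14.43, 14.55 and 14.29 on the 12-month arrays. The older arrays were all lower, the nearest by a few hundredths, at -0.57 ± 0.29 (limma adjusted p = 0.215). Hspe1, the lid of the chamber (HSP10), read 13.75, 13.94 and 13.19 and then 13.95, 13.88 and 14.33, overlapping at 0.42 ± 0.29 (adjusted p = 0.336). From 3 to 12 months the log2 ratio of the Hspd1 to the Hspe1 signal changed by -0.99. Its SD was 0.83 over the young and 0.36 over the older arrays (n = 3 each). This ratio was not among the planned comparisons. The exact permutation test gave a two-sided p of 0.2. Because 3 arrays against 3 cannot give less than 0.1, that test could not have passed 0.05 and decides nothing. The 10 tested mitochondrial members include the import J-proteins Dnajc15 and Dnajc19. None of them passed either threshold, beside 7.86% of all genes at the adjusted one and 19.4% at that of the study. Their median difference was -0.05.

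Small heat shock proteins held the lowest median of the larger families, -0.53 log2 units over 6 tested genes. Hspb7, a small heat shock protein of heart and skeletal muscle that binds filamin, read 6.68, 6.27 and 6.26 at 3 months and 5.41, 4.48 and 4.87 at 12 months. Every older array was below every young one. The gene fell by 1.48 ± 0.31 log2 units, 2.79-fold (limma adjusted p = 0.0375), with a signal well above background on all 3 young arrays but on 1 of 3 older ones. With normexp background correction the difference was -0.72, at an adjusted p of 0.0461. Of the 7 tested muscle markers, 4 were below 0 and 3 above. The cardiac myosin genes Myl2 and Myh7 and the smooth muscle gene Cnn1 passed the adjusted threshold (0.0368, 0.0373 and 0.0375). Myl2 was at least 5.68-fold lower, since it was not well above background on any older array. It entered the test only through the young arrays, so its p-value is no independent support for a fall. Myh7 and Cnn1 differed by -1.64 and -1.84 log2 units. Des (0.72), Tnnt2 (0.47) and Actc1 (0.07) lay on the other side. The part of these markers in the difference of Hspb7 was not tested. Leaving out any 1 of the 6 arrays took Hspb7 out of the called genes, at adjusted p-values between 0.0521 and 0.115.

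Hspb9, known from testis, gave 9.48, 8.65 and 9.75 on the young arrays and 7.74, 8.86 and 7.22 on the older arrays. The second older array exceeded the lowest young one, and the difference of -1.36 ± 0.49 passed the threshold of the study (unadjusted p = 0.0297) but not the adjusted one (limma adjusted p = 0.118). Hspb8, which works with Bag3 to send damaged proteins to autophagy, read 9.03, 9.13 and 9.33 and then 8.87, 8.73 and 8.05, without overlap (-0.61 ± 0.29, adjusted p = 0.194). Bag3 itself differed by -0.18 ± 0.29. The abundantly read Hspb1 (HSP27) overlapped between the ages, with 0.14 ± 0.29. Cryab, a small heat shock protein of lens and muscle whose symbol lies outside the rule, read 11.85, 11.91 and 11.32 and then 11.59, 10.39 and 10.23 (-0.96 ± 0.42, adjusted p = 0.164).

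The J-proteins of class B contained 4 of the 7 members past either threshold. Of 8 tested class B genes, 2 were higher and 2 lower at the threshold of the study, against 19.4% of all genes in either direction. Dnajb4, a cytosolic partner of HSP70, read 8.12, 8.19 and 8.44 on the 3-month arrays and 9.82, 9.66 and 10.02 on the 12-month arrays. The groups were separated by more than 1 log2 unit with little spread in either. Dnajb4 rose by 1.58 ± 0.23 log2 units, a 3.00-fold higher signal (SE, n = 3 and 3; limma adjusted p = 0.0159). The difference stayed between 1.49 and 1.68 when each array was left out in turn, but its adjusted p was 0.061 without 3-month replicate 1, 0.0753 without 12-month replicate 1 and 0.0632 without 12-month replicate 3.

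Dnajb5, a close relative of Dnajb4, read 7.28, 8.16 and 6.26 at 3 months and 9.17, 8.86 and 9.52 at 12 months. The older arrays were all higher, over a wide spread of the young ones, and the difference of 1.95 ± 0.49, 3.87-fold, passed the threshold of the study (limma adjusted p = 0.0564). All 5 tested stellate and mesenchymal markers were above 0 as well, with a median difference of 1.53 and 1 of them at an adjusted p under 0.05, and their part in the values of Dnajb4 and Dnajb5 was not tested. Dnajb1, the best known heat-inducible member of this class, was not matched to a probe and was not analysed here.

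Dnajb2, a J-protein with ubiquitin-binding motifs that is abundant in neurons, had 14.29, 13.54 and 13.39 on the young arrays and 12.33, 12.34 and 12.96 on the older ones. It was lower on all older arrays, by -1.20 ± 0.34 (2.29-fold, limma adjusted p = 0.0708). The nerve and Schwann cell list stood lower in the same arrays: 9 of its 10 tested genes were below 0 with a median of -1.07, 2 of the 10 at an adjusted p under 0.05 and none above. The part of these cells in the value of Dnajb2 was not tested. Dnajb6, which suppresses protein aggregation, read 11.17, 11.25 and 11.65 and then 10.77, 10.96 and 10.61, lower without overlap but not past a threshold (-0.57 ± 0.25, adjusted p = 0.163).

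**Figure D2:**
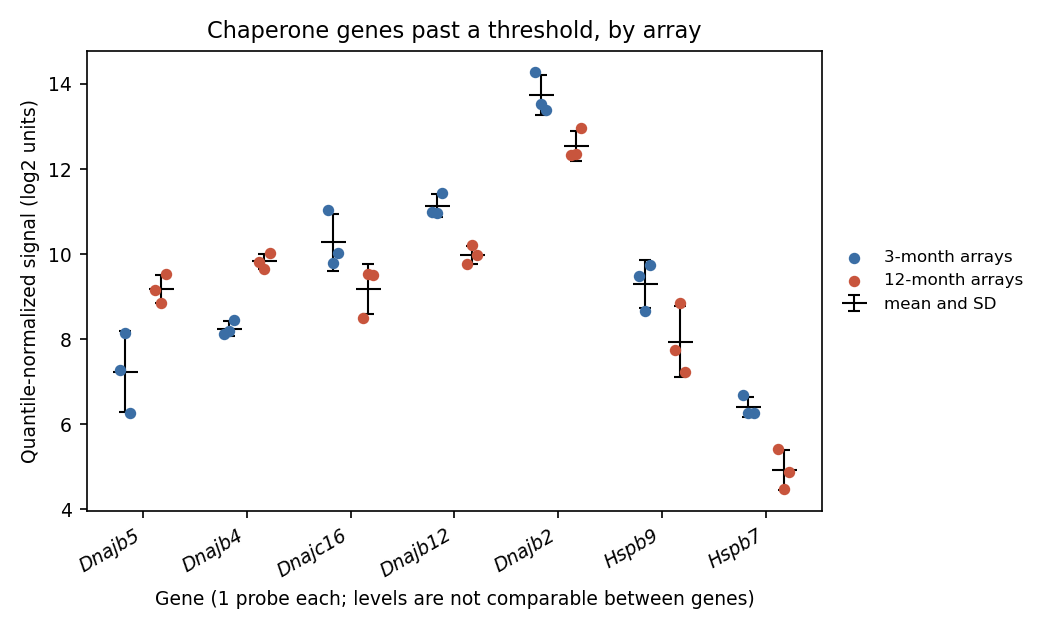
Each point is the log2 signal (vertical axis) of 1 array for the 7 genes past either threshold, blue for 3-month and red for 12-month islets, with the mean and SD of 3 arrays in black. Dnajb4 and Dnajb5 sit higher in 12-month islets and the other 5 lower, and of the 7 only Hspb9 overlaps between the ages.

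Of the 5 tested J-proteins on a fixed ER list, which may not hold every member at the ER, 3 were lower on all older arrays than on any young array. Dnajb12, an ER membrane J-protein that recruits cytosolic HSP70 to proteins marked for degradation, read 11.00, 10.97 and 11.45 on the 3-month and 9.78, 10.21 and 9.97 on the 12-month arrays. All older arrays lay below all young ones, and Dnajb12 fell by 1.15 ± 0.26 log2 units, 2.23-fold (limma adjusted p = 0.0434). Its adjusted p stayed under 0.05 without 12-month replicate 2 (0.0444) and was between 0.0684 and 0.161 with any other array left out.

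Dnajc16, whose protein resides at the ER, gave 11.03, 9.78 and 10.02 and then 8.51, 9.53 and 9.51. The groups did not overlap, and the difference of -1.10 ± 0.44 passed the threshold of the study only (unadjusted p = 0.043, limma adjusted p = 0.142). Dnajc18, another ER membrane J-protein, was close to constant within each age, at 10.19, 10.34 and 10.24 against 9.73, 9.59 and 9.54 (-0.64 ± 0.21, adjusted p = 0.101). The remaining tested members of the ER list, the disulfide reductase Dnajc10 and Dnajc25, differed by 0.28 ± 0.28 and 0.59 ± 0.32 with overlapping groups. The list thus held 1 of 5 lower at the adjusted threshold (2.98% of all genes) and 2 of 5 at that of the study (9.64%), 3 of 5 lower without overlap (22.1%), none higher at either threshold, and a median of -0.64. Dnajc18 and the genes of the paragraph on class C that fall outside the naming rule (Dnajc12, Dnajc14, Dnajc8, Dnajc2 and Dnajc30), like Dnaja3 and Hsf4, were chosen after their values were seen.

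Class A J-proteins, the relatives of bacterial DnaJ, had a median difference of 0.34 over 4 genes. None was past a threshold, beside 7.86% of all genes at the adjusted one and 19.4% at that of the study. Dnaja1, the major cytosolic one, read 13.66, 13.59 and 13.61 at 3 months and 14.18, 14.00 and 14.05 at 12 months. The arrays of an age lay within 0.18 log2 units of each other and the ages did not overlap, at a difference of 0.46 ± 0.21 (1.37-fold, limma adjusted p = 0.185). For Dnaja3, of mitochondria, the probe used gave -0.54 and a dimmer one 0.44.

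The 20 tested genes of class C, in which the J-domain is joined to many other domains, had a median difference of 0.07. Dnajc16 alone passed the threshold of the study (1 of 20, against 19.4% of all genes), and none the adjusted one (7.86%). The ages did not overlap for 3 higher and 5 lower genes, that is 8 of 20, close to the 39.1% of all genes. Dnajc5, the cysteine string protein, read 8.48, 8.90 and 9.28 on the young and 8.03, 8.29 and 7.80 on the older arrays. All older values were lower, by -0.85 ± 0.29 (1.80-fold), which did not pass after adjustment (limma adjusted p = 0.106). The widest difference of all members was that of Dnajc7, which links HSP70 to HSP90 through its tetratricopeptide repeats, at 7.62, 7.88 and 5.13 and then 9.36, 7.49 and 10.16. These groups overlapped, and 2.13 ± 0.93 did not pass (adjusted p = 0.165). Higher without overlap were Dnajc12 (0.79 ± 0.25), a partner of the aromatic amino acid hydroxylases, Dnajc14 (0.88 ± 0.29) and Dnajc8 (0.98 ± 0.31), of the splicing machinery, at adjusted p-values from 0.0865 to 0.0945. Lower without overlap were Dnajc2 (-0.64 ± 0.31), which works at the ribosome, and the mitochondrial Dnajc30 (-0.51 ± 0.29), at adjusted p-values of 0.198 and 0.25.

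Of the heat shock factors, Hsf2 read 11.54, 11.29 and 11.09 at 3 months and 11.25, 11.52 and 11.08 at 12 months, overlapping throughout (-0.02 ± 0.25). Hsf4, known from the lens, differed by 0.09 ± 0.48. Hsf1, the main factor of the heat response, had no matched probe here and was not analysed. Of a list of 15 heat-inducible genes, 12 were tested. Hspa1a, Hspa1b and Dnajb1 were not matched, and Hspa8 and Hsp90ab1, named constitutive above, are among the 12, so the list does not measure Hsf1 activity. Dnajb4 alone passed either threshold, against 7.86% of all genes at the adjusted one and 19.4% at that of the study. The median difference was 0.12. The ages did not overlap for 5 of the 12 (39.1% of all genes), Dnajb4 and Dnaja1 higher and Hsph1, Hspd1 and Hspb8 lower. Beside them, none of 13 tested immediate early and stress genes passed the adjusted threshold (7.86% of all genes). Fos (3.26 ± 1.13) and Myc (3.79 ± 0.99) were higher at the threshold of the study (limma adjusted p = 0.106 and 0.0619), 2 of 13 against 9.80% of all genes. For Fos, 12-month replicate 2 and the highest young array both read 6.33. The young Myc arrays spanned 4.18 log2 units, and 2 of the 3 were well above background. The part of the immediate early and stress genes in the values of the heat-inducible ones was not tested.

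**Figure D3:**
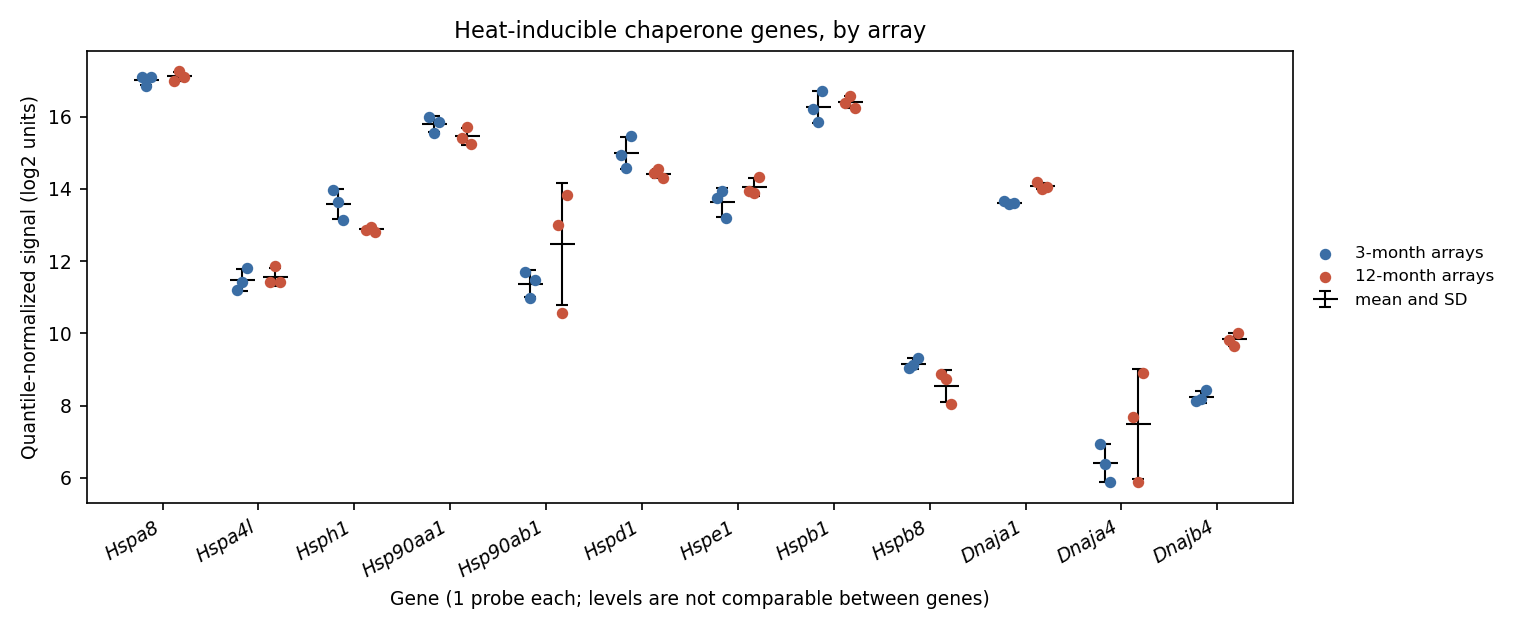
For the 12 tested heat-inducible genes, each point is the log2 signal (vertical axis) of 1 array, blue for 3-month and red for 12-month islets, with the mean and SD of 3 arrays in black. Blue and red sit at nearly the same height for Hspa8, Hspa4l and Hspb1, are clearly apart for Dnajb4, and on the 12-month arrays Hsp90ab1 and Dnaja4 span 3.26 and 3.02 log2 units.

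A minority of the promoters searched carried the letters of the element that heat shock factors bind. In RefSeq windows of 300 bases (250 before and 50 after the start of the gene, assembly GRCr8), available for 47 of the 61 members, 3 alternating units, spelled GAANNTTCNNGAA or TTCNNGAANNTTC on either strand, were found for 5 members (10.6%) and in 267 of 33465 windows of all genes (0.798%). The shorter 2-unit form, GAANNTTC or TTCNNGAA, stood in 15 of the 47 (31.9%) and in 15.9% of all windows, and every 3-unit match also holds it. Members were counted with 1 window per gene, while all windows were counted without merging any of the same gene. The shares of members and of all windows are therefore not strictly like for like. The 5 members were Hspa8, Hsph1, Dnaja1, Hspd1 and Hspe1. Their sites are shown because this is the sequence through which heat shock factors are known to act, with the 3 units in capitals and the strand of the gene read 5′ to 3′. The first of the 2 Hspa8 sites lies at chr8:50080293-50080322 and the other at chr8:50080451-50080480, both on the plus strand, those of Hsph1 and Dnaja1 at chr12:10427324-10427353 and chr5:60638405-60638434, also on the plus strand, that of Hspd1 at chr9:64084253-64084282 on the minus strand and that of Hspe1 at chr9:64084254-64084283 on the plus strand.
Hspa8, distal: gcgagcgtGAAAGTTCCAGAAcgctgcggt
Hspa8, proximal: cggaacccTTCTGGAAGGTTCtaagacagg
Hsph1: gccgcagaTTCTGGAAAGTTCtcctcagta
Dnaja1: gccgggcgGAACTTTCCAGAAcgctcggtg
Hspd1: gccttccgGAAGGTTCTAGAAccgagcgcg
Hspe1: gcgctcggTTCTAGAACCTTCcggaaggcc

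The Hspd1 and Hspe1 sites are the same 13 base pairs read from opposite strands (chr9:64084262-64084274), between 2 genes that point away from each other, and a further match overlaps them. None of these 5 genes passed a threshold, against 7.86% of all genes at the adjusted one and 19.4% at that of the study. Their differences ran from -0.70 for Hsph1 to 0.46 for Dnaja1, and 3 of the 5 did not overlap between the ages (39.1% of all genes), Dnaja1 higher and Hsph1 and Hspd1 lower. Of all 15 members with a 2-unit or 3-unit match, Dnajc27 was not tested, and none of the others passed either threshold, against the same shares of all genes. Dnajb4 had no window in the table and was not searched. A match of letters describes the sequence and does not show that a factor binds there.

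Around the chaperones, 50 co-chaperones and partner chaperones were tested of a list of 60. Past the adjusted threshold, 2 were higher and 1 was lower (3 of 50, against 7.86% of all genes). The lower one, Grpel2, entered the test through the young arrays alone. At the threshold of the study 3 were higher and 2 lower (5 of 50, against 19.4%). The median difference was 0.11. St13, the HSP70-interacting protein that holds HSP70 on its client, read 5.97, 6.32 and 6.47 at 3 months and 7.64, 7.82 and 8.56 at 12 months. All older arrays were higher by more than 1 log2 unit, and St13 rose by 1.75 ± 0.32 (3.37-fold, limma adjusted p = 0.0268). Without 12-month replicate 2 it still passed (adjusted p = 0.0348), and with any other array left out its adjusted p was between 0.058 and 0.09.

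Chordc1, a partner of HSP90, read 3.64, 4.67 and 5.18 and then 6.17, 6.88 and 6.56. It was higher on all older arrays, by 2.04 ± 0.43 (4.11-fold, limma adjusted p = 0.0387), with 2 of the 3 young arrays well above background. Under normexp background correction Chordc1 had a difference of 0.81 (adjusted p = 0.0351). Its adjusted p lay between 0.0526 and 0.107 when each array in turn was left out. Grpel2, which exchanges the nucleotide of mitochondrial HSP70, read 4.79, 4.32 and 4.36 on the young and 3.30, 2.70 and 2.85 on the older arrays, where it was not well above background on any. Grpel2 entered the test only through the young arrays, where it was high. Its limma adjusted p of 0.0257 is therefore no independent support for a fall. Because the older level is only an upper limit, no fold is given. With normexp its difference was -0.29 and did not pass (adjusted p = 0.227). Leaving out 3-month replicate 2 or 12-month replicate 2 kept Grpel2 past the threshold (0.049 and 0.0408), and any other array took it above, to at most 0.0865. Stip1, the adaptor between HSP70 and HSP90, gave 8.54, 8.12 and 6.84 and then 9.80, 7.61 and 11.17, overlapping at 1.69 ± 0.91 (adjusted p = 0.235).

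Hsp90ab1, Hspa9, Dnajc7, Dnaja4 and Dnajc4 shared a spread on the 12-month arrays, noticed after their values were seen and given without a test. Each of these 5 spanned more than 2 log2 units over the older arrays, with replicate 2 lowest and replicate 3 highest. Of all tested genes with a value on every 12-month array, 928 of 11184 (8.30%) spanned as much, and 430 of those (46.3%) had the same order. The co-chaperones Stip1, Stub1, Trap1, Pfdn2 and Pfdn6 were the 5 of 50 with such a span and had that order too. In the lists set beside them, such a span in that order was found for 2 of 7 acinar markers, Ctrb1 (17.64, 14.39 and 17.91) and Cel (17.36, 14.36 and 17.88), for 2 of 13 immediate early and stress genes, Fos (10.02, 6.33 and 10.33) and Egr1, for 1 of 4 duct markers and for 1 of 8 immune markers. It was found for none of the tested islet, endothelial, stellate, nerve, muscle and red blood cell markers. The part of these genes in the spread was not tested. Without 12-month replicate 2, 13 members in place of 7 passed the threshold of the study, 8 of them higher, the 5 named among these, while the share over all genes went from 19.4% to 23.7%. The number at an adjusted p under 0.05 was then 4 in place of 3, Dnajb4, Dnajb12, Hsp90ab1 and Hspb9. Because the 5 genes were picked with replicate 2 as their lowest older array, leaving it out had to raise their differences. These counts are therefore no test of those genes.

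**Figure D4:**
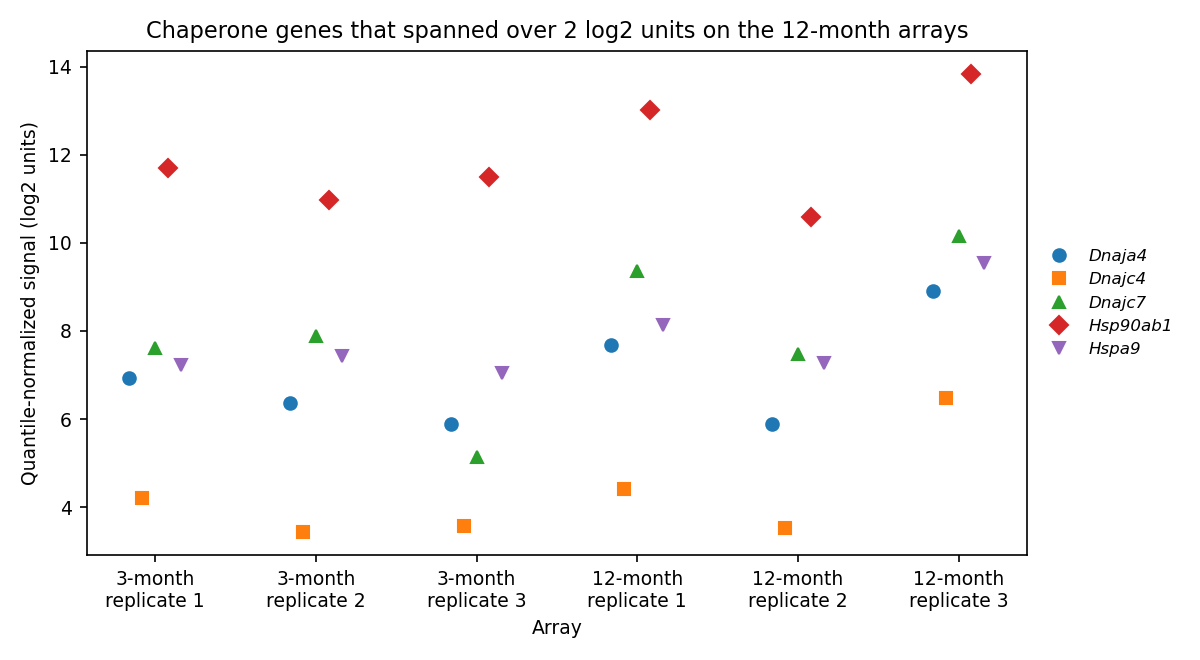
The log2 signal (vertical axis) of the 5 chaperone genes that spanned over 2 log2 units on the 12-month arrays is drawn for each of the 6 arrays, 1 marker shape and colour per gene. In 12-month replicate 2 all 5 are near their 3-month level, and in 12-month replicate 3 each is at its highest, for Hsp90ab1 at 13.84.

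The 6 members with a probe that was not tested were dim. Dnajb8, Dnajc13, Dnajc27 and Dnajc5b were not well above background on any array, and Hspb3 and Hsfy2 on 1 young array each. The reference lists 79 protein-coding genes that fit the rule, and the 18 without a matched probe were not analysed here.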

How the data were processed

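Islet RNA of 3 young and 3 older rats was hybridised, with Cy3 only, to 1-colour Arraystar arrays on an Agilent design. What the authors deposited for each array is spot intensity quantified, per the file headers, with Agilent Feature Extraction 11.0.1.1, background-subtracted and not normalized between arrays. A table of log2 values of 12145 probes was deposited too, and it tracked the values computed here with r of at least 0.9996 across probes on each array. Arrays have no read depth, and their number limits the precision.

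Ages came from the labels. The log2 intensity was averaged over unmarked spots of a probe and quantile normalized. Probes well above background on at least 3 of 6 arrays were tested (17941 probes) by lmFit and eBayes of limma 3.58.1 (R 4.3.3), two-sided and without a block. The labels number the 3-month arrays and 2 of the 12-month arrays without saying that numbers pair animals, and p-values measure the spread between these samples. Genes were named through RefSeq accessions, unversioned, in a GRCr8 table (14274 of 15323 mRNA probes matched), and the brightest probe stands for a gene. The array design uses another build, so only promoter windows carry coordinates. The naming rule took members past either threshold, a list of 22 members (17 on the array) and, of the co-chaperones, those past the adjusted threshold with Bag3, Stip1 and Cryab; other genes were named after their values were seen. Members and lists were chosen with earlier results of these data known. Alternatives were a 75th percentile shift, normexp on median signals (offset 50), the authors' table, other filters, variance models, pairings and array sets, and an unpaired Student's t-test (the study's methods name Student's test, and its supplement a paired one). The script was tested on simulated data beforehand. 1 further marker gene is not reported here.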

Additional observations from a re-analysis of the deposited data

How the results depend on the processing

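The 3 members at an adjusted p under 0.05 (7.86% of all genes) became 6 with normexp background correction (11.1%), 7 with an intensity trend and robust variances (11.6%) and 0 on the 4 arrays whose names share an ending (0%). With each array left out in turn there were 0 to 4, with 0 without 3-month replicate 1 (1.55% of all genes), 12-month replicate 1 (1.08%) or 12-month replicate 3 (1.35%). At the threshold of the study, 7 became 5 to 13, with 13 without 12-month replicate 2. The members' median of 0.07 moved to -0.29 with the 75th percentile shift and lay between -0.13 and 0.13 with an array left out. For co-chaperones, the 3 at the adjusted threshold became 1 by the unpaired t-test (Cct6a; 2.38% of all genes), 0 on the 4 arrays and 0 to 3 with an array left out. The 5 at the threshold of the study became 8 with the 75th percentile shift, 1 with normexp, 3 by the t-test and 3 to 9 with an array left out. The cause of these shifts was not tested.

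Same-numbered arrays did not deviate together (r = -0.01 and -0.31, and -0.26 for the pair left by elimination), while the other pairs ran from -0.21 to 0.36. With 3 arrays per age, such correlations cannot show whether same-numbered samples share more than a number. With a replicate block of the 2 numbered pairs or of 3 pairs, 0 members and 0 co-chaperones passed the adjusted threshold (0% and 0.411% of all genes), while 5 members passed that of the study under each block and 5 and 4 co-chaperones did. Slide or scan could not be fitted as a block, because each holds 1 age.

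Differences near 0 changed sign. With the 75th percentile shift, Hspa4 was at -0.33, Hspa4l at -0.040, Hspa8 at -0.35 and Hspb1 at -0.29. On the 4 arrays, Bag3 was at 0.13, Hsf2 at 0.20 and Hspa4 at -0.044. With an array left out, Hsf2 ran from -0.14 to 0.097, Hspa4 from -0.13 to 0.079, Hspa4l from -0.059 to 0.26 and Hspb1 from -0.074 to 0.36. Of all alternative settings that gave a value, Dnajb4 passed the adjusted threshold in 11 of 17, Dnajb12 in 8 of 17 and Hspb7 in 6 of 16, each with the same sign throughout. Hspb7, Chordc1 and Grpel2 have no value where a probe had to be above background on all 6 arrays.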
